A study of Mus musculus with 34 samples.

Results

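HDAC1 is a histone deacetylase that works inside larger corepressor complexes, and the genes described here encode 35 subunits of such assemblies other than the deacetylases themselves. They were chosen by name as subunits of these complexes, by a rule that uses no measured value, though with earlier results of these data known: 13 of the Sin3 complex, 10 of NuRD, 7 of CoREST, 3 MIER proteins and the 2 histone chaperones Rbbp4 and Rbbp7, which NuRD and Sin3 share. All 35 were among the 23951 genes listed in every library and all 35 passed the filter on low values in every comparison. HDAC1 and its paralog HDAC2, the catalytic subunits, were followed beside them.

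The RNA came from the hippocampus of mice aged 13 to 14 months: 4 control mice (Hdac1 f/f), 5 Hdac1 cKO mice (Hdac1 f/f with Nestin-Cre), 6 5XFAD mice at 13 months, and 5 compound mice at 13 months that were both Hdac1 cKO and 5XFAD. Nestin-Cre deletes Hdac1 in neurons and astrocytes and leaves it in microglia, and 5XFAD mice carry human transgenes with familial Alzheimer's disease mutations, expressed in neurons. Another experiment took GFAP+ nuclei, an astrocyte-enriched fraction, from cortex at 13 months, with 3 control (Hdac1 f/f) and 4 Hdac1 cKO libraries. Levels are FPKM, fragment numbers scaled to transcript length and library size, with 1 value per gene and mouse; the depth of the libraries, estimated from the steps between low FPKM values, was 2256000 to 7043000 fragments in hippocampus and 6549000 to 9481000 in GFAP+ nuclei.

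In Sin3 complexes, the scaffold SIN3A or SIN3B holds the deacetylase together with subunits that read histone marks (ING1, ING2) or stabilise the assembly. NuRD couples deacetylation to nucleosome remodelling by a CHD3, CHD4 or CHD5 ATPase and reaches methylated DNA through MBD2. CoREST joins HDAC1 or HDAC2 to the histone demethylase LSD1 (Kdm1a) and is known for keeping neuronal genes silent in other cells, and paralogs of most subunits can replace each other within a complex.

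Promoter windows of 3 members that return in the comparisons are shown to make concrete a short G-rich core that most of the members' windows held. RefSeq promoter windows (table build GRCm38.p6) were found for 29 of the 35 members. Chd3, Mta3, Mbd2, Sap130, Arid4a and Brms1 had none. Each printed run is the 250 bases before a RefSeq transcription start, located in mm9 by its single exact match. Capitals mark the 6-base core GGGCGG or its reverse complement CCGCCC. The Chd4 window lies at chr6:125045749-125045998 (+ strand), directly before the gene (chr6:125045999-125080609). The Zmym2 window lies between genes at chr14:57505190-57505439 (+ strand), before the gene at chr14:57505490-57579182. The Sin3a window lies at chr9:56923933-56924182 (+ strand), in an intron of the annotated gene (chr9:56919847-56976173), before a RefSeq start inside it.
Chd4: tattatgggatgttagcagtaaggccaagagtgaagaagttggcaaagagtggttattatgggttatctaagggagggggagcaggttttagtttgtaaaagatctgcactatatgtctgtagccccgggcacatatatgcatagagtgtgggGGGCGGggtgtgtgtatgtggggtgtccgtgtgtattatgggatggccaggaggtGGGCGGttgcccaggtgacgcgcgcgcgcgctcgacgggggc
Zmym2: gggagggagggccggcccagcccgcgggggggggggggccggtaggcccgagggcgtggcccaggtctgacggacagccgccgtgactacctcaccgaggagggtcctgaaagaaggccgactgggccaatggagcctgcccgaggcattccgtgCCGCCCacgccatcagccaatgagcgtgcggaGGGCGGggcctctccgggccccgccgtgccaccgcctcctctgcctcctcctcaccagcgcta
Sin3a: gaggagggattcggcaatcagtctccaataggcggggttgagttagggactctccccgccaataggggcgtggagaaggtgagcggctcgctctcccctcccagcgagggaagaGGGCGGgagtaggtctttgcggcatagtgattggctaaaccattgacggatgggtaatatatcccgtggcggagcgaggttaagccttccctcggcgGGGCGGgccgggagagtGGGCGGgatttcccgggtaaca

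The printed Chd4 window held 2 cores and 12 CpG dinucleotides, the Zmym2 window 2 cores and 23 CpG, and the Sin3a window 3 cores and 19 CpG. Each of these genes has another RefSeq window that is not printed, with 3 cores for Chd4, 0 for Zmym2 and 1 for Sin3a. Over all 43 windows of the 29 members, 37 (86%) held at least 1 core on either strand, against 43.5% of the 20253 windows of all 16745 listed genes with an entry. The longer 9-base box GGGGCGGGG (or CCCCGCCCC), which contains the core, was present in 10 of the 43 windows (23.3%) and in 14.2% of all windows. The median window of the members had 65.6% G or C and 23 CpG, against 56% and 10 over all windows. The windows of all listed genes include genes with little or no RNA here, whereas all members passed the filter on low values. A comparison with expressed genes only was not made, and genes with several windows count several times.

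In the hippocampus of control mice the mean levels of the 35 members ran from 0.914 to 72 FPKM, with a median of 12.8 FPKM, and 23 members lay at or above 10 FPKM. Within the libraries the median member stood at the 79.6th percentile of all listed genes. The plot of levels in control mice shows each library.

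**Figure D1:**
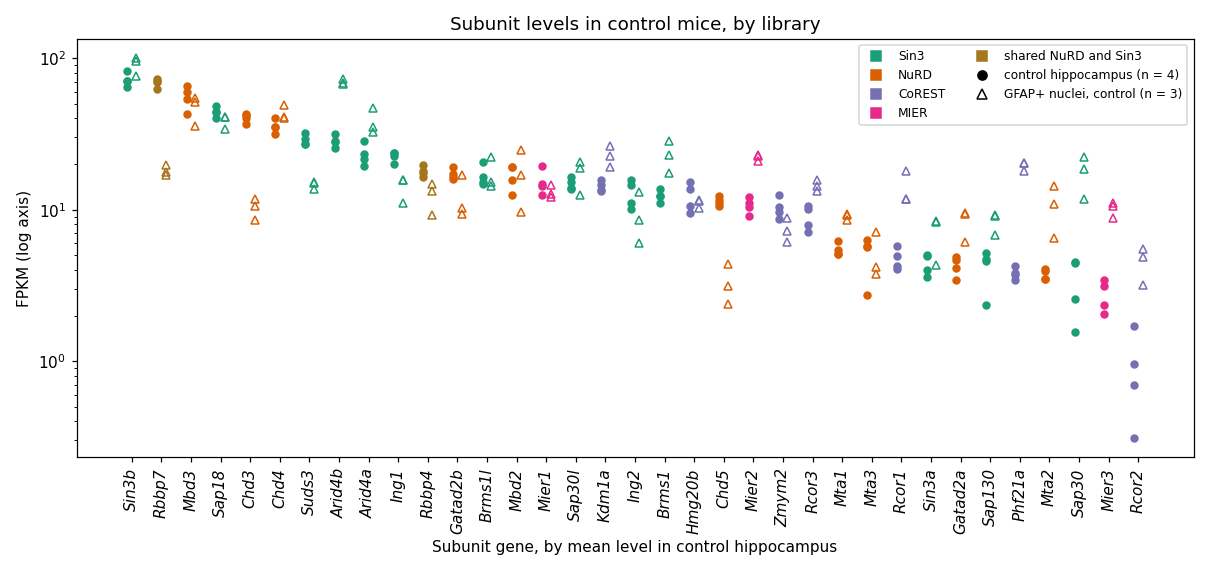
FPKM (log axis) of the 35 subunit genes in the 4 control hippocampi (circles) and in GFAP+ nuclei of 3 control mice (triangles), coloured by complex and ordered by mean hippocampal level. Sin3b is highest in both materials, Rcor2 is lowest in hippocampus at 0.914 FPKM, Chd3, Chd5 and Rbbp7 lie lower in the nuclei, and Phf21a, Sap30 and Rcor2 lie higher there.

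Among the Sin3 subunits, the scaffold gene Sin3b was the most abundant at 72 ± 7.5 FPKM (SD, n = 4) and Sap30, which strengthens the binding of SIN3 to other factors, the least at 3.27 ± 1.4 FPKM. The ranges of Sin3b and of Rbbp7, second in the order at 68.9 ± 4.4 FPKM, overlapped. In NuRD, Mbd3, an MBD protein that binds methylated CpG poorly, was highest at 55.4 ± 9.6 FPKM and Mta2 lowest at 3.74 ± 0.29 FPKM. In CoREST, the demethylase gene Kdm1a led at 14.3 ± 1.1 FPKM. Rcor2, one of 3 genes for the CoREST scaffold, was the lowest member in the hippocampus of control mice, with 1.69, 0.309, 0.962 and 0.693 FPKM in control replicates 1 to 4. It was listed at 0 in compound replicates 2 and 3, and its level rested on an estimated 11.4 fragments in the median hippocampal library. Mier1 led the MIER group at 15.3 ± 2.9 FPKM and Mier3 was lowest at 2.74 ± 0.65 FPKM.

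The hippocampal libraries hold the 3′ ends of transcripts, whereas FPKM divides by the transcript's length. With the length taken out again (FPKM multiplied by the longest annotated transcript), 25 of the 35 members stayed within 4 ranks of their place in control mice, Sin3b stayed first and Rcor2 stayed last. Rbbp7 went from second to rank 5, Chd3 in place of Mbd3 was highest in NuRD, and Zmym2 in place of Kdm1a was highest in CoREST. The order of levels is therefore given with that limit, which does not touch comparisons of 1 gene between mice of the same experiment.

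Members of several paralog families were unequal in hippocampus. Sin3b held 94.6% ± 1.4 of the summed FPKM of the Sin3 scaffold pair (SD, n = 20 hippocampal libraries) and Sin3a 5.38%. Rbbp7 held 78.7% ± 2.3 of the chaperone pair, Mbd3 79.2% ± 4.4 of the MBD pair, Gatad2b 81.2% ± 3.3 of the pair that bridges the MBD protein to the ATPase, and Sap30l 80.8% ± 6.3 of its pair. Chd3 held 48.9% ± 3.4 of the ATPases, Chd4 37.3% ± 3.5 and Chd5, known as a neuronal paralog, 13.8% ± 1.4. In these 6 families the same paralog was highest in all 20 hippocampal libraries. With the length taken out this held in all 20 for 5 of them and in 19 for Gatad2b. The shares themselves moved: without length Gatad2b held 61.4% and Rbbp7 64.0%. For the Mta, Rcor and Mier scaffolds the leading paralog was highest in 12, 19 and 16 of the 20 libraries. When length was taken out, the Mta lead passed from Mta1 to Mta3, Rcor3 was highest in 13 and Mier1 in all 20 libraries. Shares were closer in other families. Mta1 held 38%, Mta3 32% and Mta2 31%, and Arid4b 54.3% and Arid4a 45.7%. Ing1 held 61.7% and Ing2 38.3%, and Suds3 48.9%, Brms1l 28.7% and Brms1 22.4%. Without length, Mta3 held 45.6% and Brms1 13.6%. Rcor3 held 59% and Rcor2 6.42%. In the pairs above, Rbbp4 held 21.3%, Mbd2 20.8% and Gatad2a 18.8%.

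The composition was different in GFAP+ nuclei. The nuclear libraries were made by another method and normalised separately, so levels are set side by side without a test, and tissue, region, cell type, library type and the use of nuclei cannot be told apart. Chd4 held 72.6% ± 3.5 of the ATPase FPKM (SD, n = 7 libraries), Chd3 20.6% and Chd5 6.78%, and Chd4 was highest in all 7. By group, Chd4 held 75.8 to 76.8% in the 3 control and 68.3 to 71.7% in the 4 Hdac1 cKO libraries, and Chd3 16.0 to 19.7% and 21.4 to 24.5%. Between the controls of the 2 experiments, Chd3 was at 40.6 ± 2.6 FPKM in hippocampus (n = 4) and 10.3 ± 1.6 FPKM in GFAP+ nuclei (n = 3), and its median percentile in the library fell by 20, from 91.8 to 71.8. Chd5 went from the 78th to the 54th percentile and Rbbp7 from 94.6 to 82.1. In the other direction, Phf21a, the CoREST reader of unmethylated histone H3, went from 62 to 83.2, Sap30 from 60.8 to 81.7, and the scaffolds Rcor2 from 44.5 to 60.1 and Mier3 from 57.7 to 71.7. Of the 35 members, 13 had percentiles in all 3 nuclear control libraries above those of all 4 hippocampal controls, 10 had percentiles below them, and 12 overlapped. These 23 are 65.7% of the members, and 65.9% of the 15223 genes past the same filter separated in this way.

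The labels fitted the markers of the material. The mean log2(FPKM + 1) of 9 astrocyte markers was 7.71 to 8.13 in the 7 nuclear libraries and 6.08 to 6.8 in the 20 hippocampal ones, and that of 9 neuronal markers was 3.93 to 4.45 and 6.75 to 7.01. Oligodendrocyte markers (7 genes) remained at 4.83 to 6.48 in the nuclei.

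**Figure D2:**
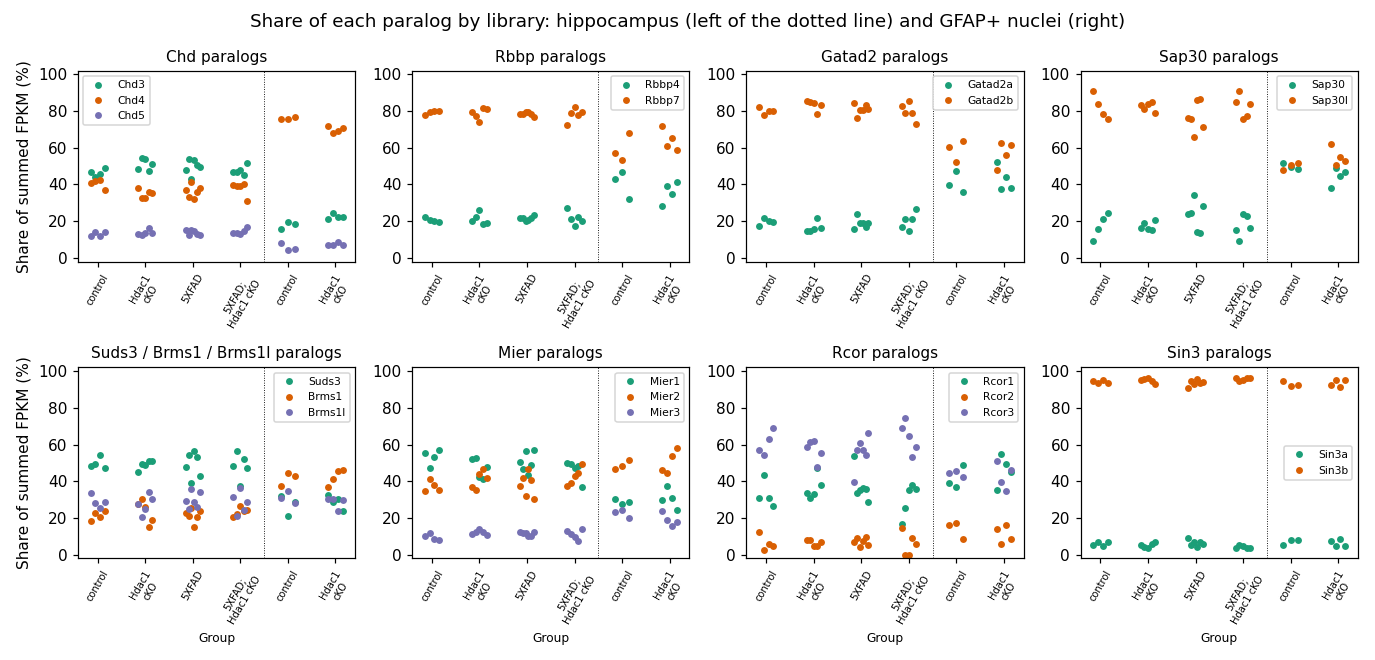
Share of the family's summed FPKM (%) held by each paralog, 1 point per library, for 8 families in the 4 hippocampal groups and the 2 groups of GFAP+ nuclei. Sin3b stays above 90% in every library, and Chd4 passes Chd3 in all 7 nuclear libraries (72.6% against 20.6%).

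Deletion of Hdac1 was seen in the RNA. Hdac1 stood at 6.42, 8.71, 10.7 and 5.91 FPKM in control replicates 1 to 4 and at 3, 3.03, 2.62, 2.69 and 2.36 FPKM in Hdac1 cKO replicates 1 to 5. In 5XFAD mice it ranged from 6.1 to 9.64 FPKM with a median of 8.74, and in compound replicates 1 to 5 it was 1.82, 2.52, 1.15, 1.86 and 2.24 FPKM. The groups with and without deletion did not overlap in either background. The 3′ libraries need not read the deleted part of the gene. Averaged over both backgrounds, the difference was -1.44 on the log2(FPKM + 1) scale (SE 0.116; adjusted p = 4.2e-07, limma; n = 10 against 10). Hdac2, which is found in the same complexes, was at 18.4 ± 3.8 FPKM in control, 16 ± 2.5 in Hdac1 cKO, 19 ± 3.3 in 5XFAD and 17.3 ± 4.2 FPKM in compound mice. Its averaged difference of -0.16 (95% interval -0.41 to 0.08; adjusted p = 0.701, limma) did not pass the test. For Hdac1 cKO against control mice it was -0.19, and -0.07 without control replicate 1, the highest control at 23.7 FPKM. It was -0.54 with the level of choroid plexus markers as a covariate (adjusted p = 0.553, limma). In libraries low in those markers, where control replicate 1 is the only control, it was -0.55. The averaged difference was -0.10 without control replicate 1 and -0.36 in the libraries low in the markers.

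No subunit gene passed an adjusted p of 0.05 in any of the 9 comparisons (limma, Benjamini-Hochberg over all genes tested), and none had a fold of at least 1.5 together with an unadjusted p under 0.05. For Hdac1 cKO against control mice, 0.154% of the 14265 genes tested passed the adjusted p and 3.36% the fold rule. An unadjusted p under 0.05 was reached by 1 of 35 members, Mier1, against 11.7% of all genes. For compound against 5XFAD mice it was reached by 1 member, Sin3a, against 6.61% of the 14326 genes tested (0.00698%, that is Hdac1 alone, passed the adjusted p and 1.28% the fold rule). With Hdac1 loss averaged over both backgrounds it was reached by 4 members, Sap130, Sin3a, Mier1 and Chd4, against 9.38% of the 14389 genes (0.0278% by adjusted p, 1.33% by the fold rule).

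The averaged comparison also bounds how large a change could have been. On the log2(FPKM + 1) scale the 95% interval of each of the 35 members lay within 0.585, the log2 of a fold of 1.5, in either direction, as it did for 86% of all genes tested. This scale understates folds of low genes. Turned into folds of FPKM at the mean level of the mice without deletion, the intervals of 32 members lay within 1.5-fold, and those of Rcor2, Sap30 and Sap130 did not. For Rcor2 the interval reached down to 0.389 of its level. The members' differences ran from -0.24 to 0.30 on the log2(FPKM + 1) scale, and 9 were higher and 26 lower with Hdac1 loss. Their median was -0.05 (median over all genes 0.002). It ran from -0.070 to -0.026 with 1 library left out and from -0.094 to -0.026 under the other alternatives. In the pairwise comparisons fewer lay within 0.585: 31 of 35 for Hdac1 cKO against control and 30 of 35 for compound against 5XFAD mice.

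**Figure D3:**
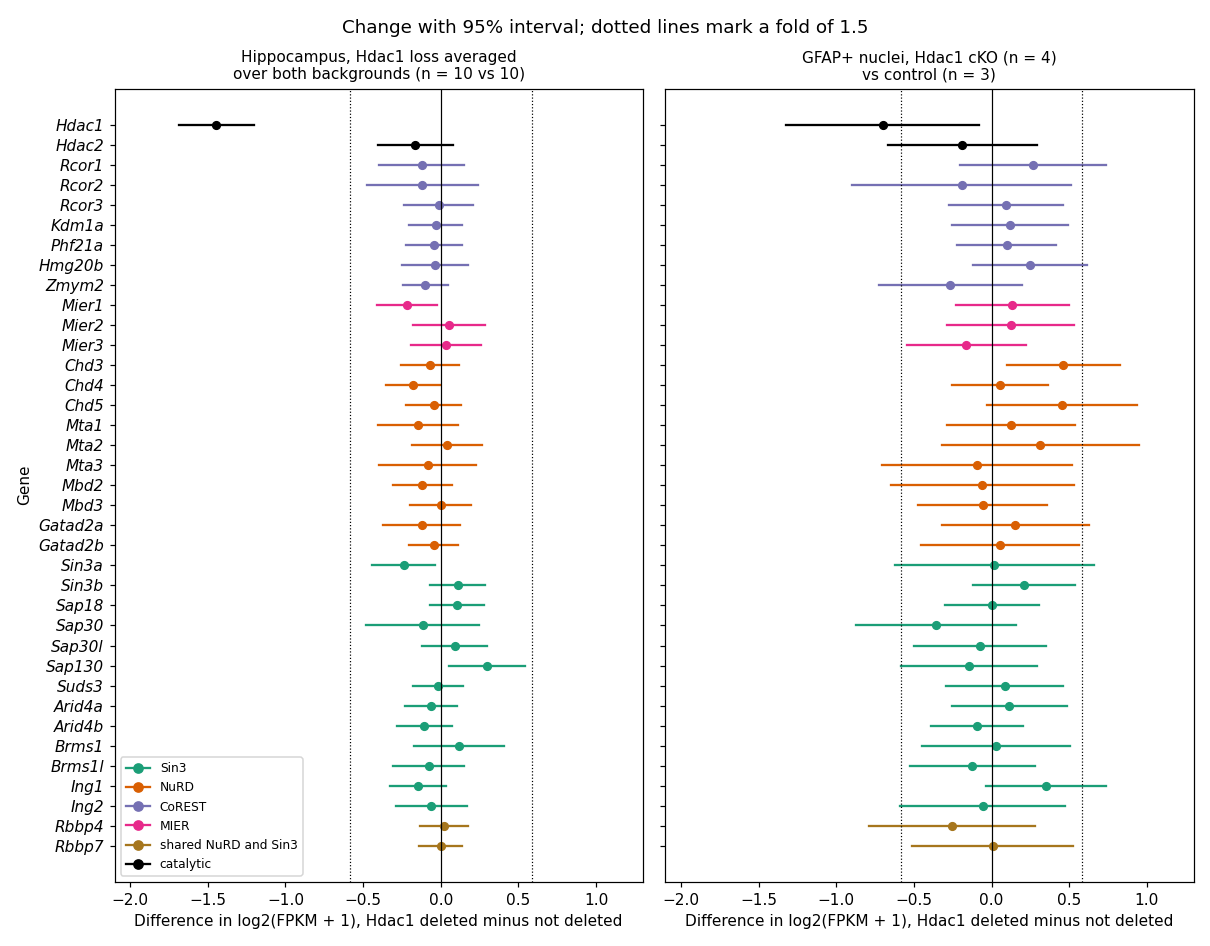
Difference in log2(FPKM + 1) with Hdac1 loss (points) and its 95% interval (lines) for Hdac1, Hdac2 and the 35 subunit genes, coloured by complex, in hippocampus averaged over both backgrounds (left) and in GFAP+ nuclei (right); dotted lines mark a fold of 1.5 on this scale. Hdac1 falls by 1.44 in hippocampus, and all 35 subunits stay between the dotted lines there.

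By complex, the mean log2(FPKM + 1) over the 13 Sin3 subunits was 4.08 ± 0.03 in control (SD, n = 4) and 4.12 ± 0.065 in Hdac1 cKO mice (n = 5), and over the 10 NuRD subunits 3.82 ± 0.022 and 3.79 ± 0.066. The 7 CoREST subunits averaged 2.87 ± 0.092 and 2.78 ± 0.041, and the 3 MIER genes 3.14 ± 0.19 and 3.09 ± 0.15. The ranges of both groups overlapped in each of these. In compound mice the NuRD mean was 3.63 to 3.78, below the 3.79 to 3.84 of control mice, while 5XFAD mice (3.61 to 3.96) covered both. The highest compound value was 3.779 and the lowest control value 3.792. This narrow separation was seen among several complexes and pairs of groups and was not tested. The Sin3, CoREST, MIER and shared chaperone means of compound and control mice overlapped.

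Mier1, a scaffold that binds HDAC1 and HDAC2, was at 19.4, 12.6, 14.4 and 14.7 FPKM in control replicates 1 to 4 and at 12.4, 11.9, 10.5, 12.1 and 13.8 FPKM in Hdac1 cKO replicates 1 to 5. The highest cKO value lay above the lowest control value, and control replicate 1 stood above all others. The difference was -0.30 (SE 0.128; adjusted p = 0.389, limma; two-sided exact permutation p = 0.0317), and it was -0.18 without control replicate 1, -0.57 with choroid plexus markers as a covariate and -0.64 in the libraries low in them. In 5XFAD mice Mier1 ranged from 9.74 to 15 FPKM (median 12.8), and in compound mice it was 11, 13.9, 11.4, 11.5 and 9.31 FPKM.

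Sin3a, the scarcer Sin3 scaffold gene, ranged from 3.64 to 5.8 FPKM in 5XFAD mice with a median of 4.86 and was 3.3, 4.47, 4.18, 3.23 and 2.96 FPKM in compound replicates 1 to 5. These groups overlapped. The difference was -0.32 (SE 0.141; adjusted p = 0.736, limma; two-sided exact permutation p = 0.0303), and averaged over both backgrounds it was -0.24 (adjusted p = 0.403, limma). In the libraries low in choroid plexus markers these were -0.07 (adjusted p = 0.988, limma) and -0.006. Of the 5XFAD and control libraries, only 5XFAD replicates 4 and 5 and control replicate 1 are among them. Their Sin3a values were 3.64, 4.22 and 3.6 FPKM, the lowest of their groups. Sin3b was at 72.8 ± 13 FPKM in 5XFAD and 82.3 ± 5 FPKM in compound mice, and these groups overlapped as well.

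Sap130, a Sin3 subunit, had the highest averaged difference of the 35 members, at 0.30 (95% interval 0.06 to 0.54; adjusted p = 0.39, limma). It stood at 4.75, 5.21, 2.36 and 4.61 FPKM in control mice, 4.76, 7.27, 5.93, 5.04 and 4.72 in Hdac1 cKO mice, and 5.15, 7.32, 6.3, 5.82 and 6.63 in compound mice, with 3.73 to 6.47 (median 5.04) in 5XFAD mice. Control replicate 3 was the lowest of all 20, and the averaged difference was 0.20 without it and 0.16 with choroid plexus markers as a covariate. Chd4, the NuRD ATPase, was at 35.3, 34.9, 40.1 and 31.8 FPKM in control mice, 35.1, 27.9, 27.5, 29.5 and 33.4 in Hdac1 cKO mice, and 28.4, 30.3, 32.6, 30.4 and 22.6 in compound mice, with 27.8 to 41.8 (median 30.2) in 5XFAD mice. Its averaged difference was -0.18 (95% interval -0.35 to -0.01; adjusted p = 0.507, limma), and the groups overlapped.

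**Figure D4:**
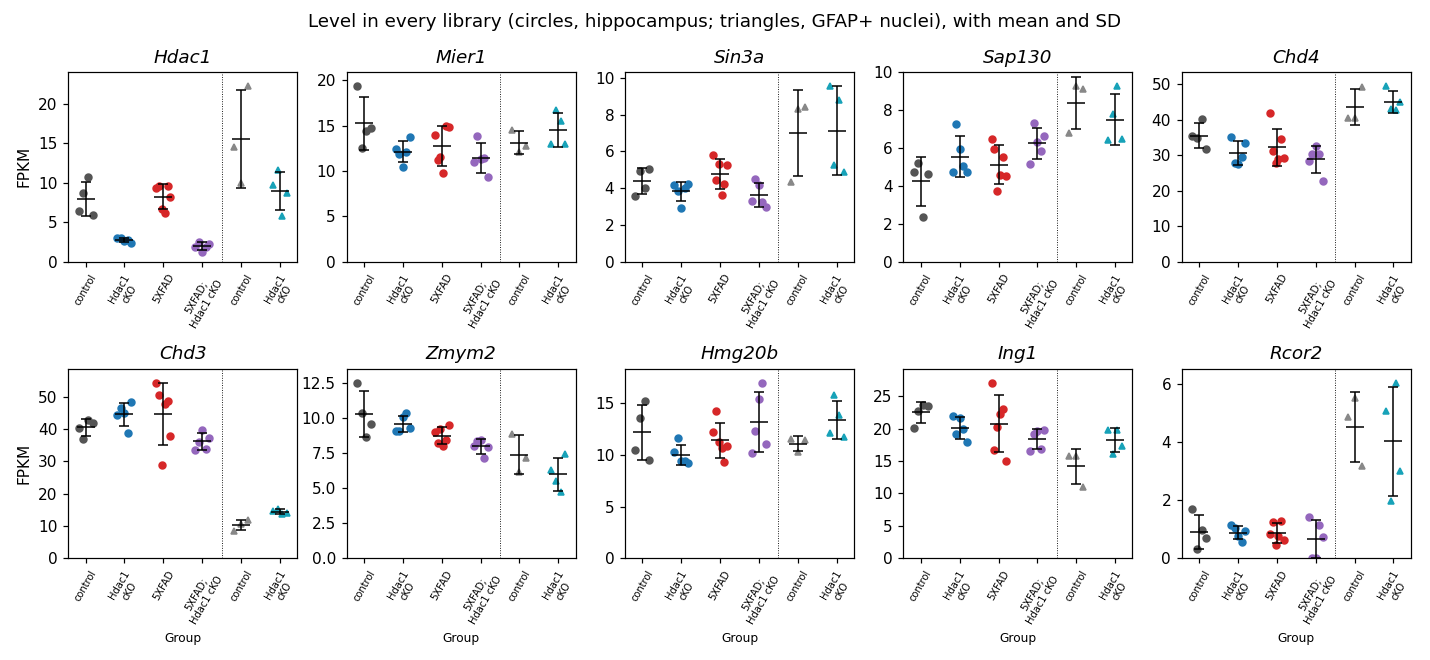
FPKM of Hdac1, the 8 subunit genes with an unadjusted p under 0.05 in any comparison and Rcor2, in every hippocampal library (circles) and every library of GFAP+ nuclei (triangles), with the mean and SD of each group. Hdac1 separates the groups with and without deletion in hippocampus, while the subunits overlap in most comparisons.

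The 5XFAD transgene was the other factor. Mice with it were labelled 13 months and mice without it 13 to 14 months. Their libraries also stand in separate blocks of the sample list. Between mice with and without the transgene, its effect, the age label and any batch that follows these blocks cannot be told apart. For 5XFAD against control mice, 0.708% of 14402 genes passed the adjusted p and 2.95% the fold rule. An unadjusted p under 0.05 was reached by 10.7% of the genes and by 0 of the 35 members. The members' count was 1 to 3 under several alternatives, with 3 when control replicate 3 was left out. No share of all genes is given for those alternatives. Averaged over both Hdac1 genotypes, 1 of 35 members had an unadjusted p under 0.05, against 11.9% of 14389 genes (2.2% by adjusted p, 2.22% by the fold rule). All 35 intervals lay within 0.585 on the log2(FPKM + 1) scale, against 84.5% of all genes, and 32 within 1.5-fold in FPKM, the exceptions being Rcor1, Rcor2 and Sap30. In the libraries low in choroid plexus markers, 25 lay within 0.585. The member with an unadjusted p under 0.05 was Zmym2, a zinc finger protein of CoREST, with a difference of -0.22 (95% interval -0.36 to -0.08, adjusted p = 0.131, limma). It was -0.39 in the libraries low in choroid plexus markers. There control replicate 1, with the highest Zmym2 value of all hippocampal libraries, is the only control. The mean log2(FPKM + 1) of 9 microglia markers was 4.27 to 4.59 in mice without the transgene and 5.36 to 6.34 in mice with it, and its part in this difference was not tested.

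Zmym2 was at 12.6, 10.4, 8.66 and 9.59 FPKM in control mice, 9.11, 9.08, 10.1, 10.4 and 9.3 in Hdac1 cKO mice, 8.02 to 9.53 (median 8.75) in 5XFAD mice and 8.05, 8.4, 8.48, 7.14 and 7.95 FPKM in compound mice. Every compound mouse lay below every control and every Hdac1 cKO mouse. Groups that do not overlap were seen for 2 of 35 members (Zmym2 and Ing1) between compound and control mice, against 4.27% of all genes, and for 1 of 35 (Zmym2) between compound and Hdac1 cKO mice, against 3.34%. No member showed this for Hdac1 cKO against control (4.23%), compound against 5XFAD (0.607%) or 5XFAD against control mice (2.9%).

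For compound against Hdac1 cKO mice, 3 of 35 members had an unadjusted p under 0.05, against 10.3% of 14195 genes (1.49% by adjusted p, 3.55% by the fold rule). Chd3 was at 44.5, 46.6, 45, 38.9 and 48.4 FPKM in Hdac1 cKO replicates 1 to 5 and at 33.6, 36.2, 39.9, 33.9 and 37.4 FPKM in compound replicates 1 to 5. These groups overlapped in 1 pair of values. The difference was -0.30 (SE 0.0865; adjusted p = 0.154, limma). Hmg20b, an HMG-box subunit of CoREST, was at 9.98 ± 1 FPKM in Hdac1 cKO and 13.2 ± 2.9 FPKM in compound mice, a difference of 0.35 (adjusted p = 0.378, limma). For Zmym2 the difference was -0.23 (adjusted p = 0.413, limma).

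Compound and control mice differ in both factors and in the age label. In this comparison 5 of 35 members had an unadjusted p under 0.05, against 10.5% of 14348 genes (0.662% by adjusted p, 4.24% by the fold rule). Ing1, a reader of trimethylated lysine 4 of histone H3, was at 20.1, 22.7, 23.7 and 23.6 FPKM in control mice and at 16.5, 19.2, 19.6, 16.9 and 19.8 FPKM in compound mice, without overlap. Its difference was -0.28 (adjusted p = 0.346, limma; two-sided exact permutation p = 0.00794, the smallest these group sizes can give), and -0.09 in the libraries low in choroid plexus markers, where control replicate 1, the lowest control, is the only control. The others were Sap130 at 0.50 (adjusted p = 0.363; 0.30 without control replicate 3, 0.27 with the markers as a covariate), Mier1 at -0.39 (adjusted p = 0.353), Zmym2 at -0.32 (adjusted p = 0.398) and Chd4 at -0.30 (adjusted p = 0.394), all by limma. In the libraries low in choroid plexus markers, with that 1 control, Mier1 was at -0.72 and Zmym2 at -0.59. This comparison shares its control mice with Hdac1 cKO against control and its compound mice with compound against 5XFAD and against Hdac1 cKO, so these values are not separate evidence.

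Over the 35 members, 26 were lower and 9 higher in compound than in control mice, with a median of -0.08 (all genes -0.007), and the counts were the same against Hdac1 cKO mice (median -0.09, all genes -0.01). The mean log2(FPKM + 1) over all 35 members was 3.71 to 3.78 in control, 3.72 to 3.75 in Hdac1 cKO, 3.65 to 3.86 in 5XFAD and 3.59 to 3.73 in compound mice. The median estimated depth was 3096000 fragments in compound, 3778000 in control and 5362000 in Hdac1 cKO libraries. The mean log2(FPKM + 1) of the 9 astrocyte markers was 6.08 to 6.18 in mice without the transgene, 6.28 to 6.43 in 5XFAD and 6.47 to 6.80 in compound mice, so that compound mice lay above all others. The part of depth and of these markers in this result was not tested.

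Whether Hdac1 loss acts differently with the transgene was read from the interaction over all 20 mice. An unadjusted p under 0.05 was reached by 2 of 35 members, against 8.97% of 14389 genes. None of the genes passed the adjusted p, and 4.07% passed the fold rule. Chd3 was higher in Hdac1 cKO than in control mice (44.7 ± 3.6 against 40.6 ± 2.6 FPKM) and lower in compound than in 5XFAD mice (36.2 ± 2.6 against 44.8 ± 9.6 FPKM), an interaction of -0.41 (SE 0.18; adjusted p = 0.525, limma). The 5XFAD values of Chd3 were widely spread, from 28.8 to 54.5 FPKM (median 48.3), and covered all other groups. Hmg20b went the opposite way, with an interaction of 0.43 (SE 0.205; adjusted p = 0.553, limma).

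Libraries differed in the level of choroid plexus markers. The mean log2(FPKM + 1) of 7 choroid plexus markers was 2.26 in control replicate 1 and 4.99 to 5.7 in the other 3 control libraries, 1.26 to 2.8 in Hdac1 cKO, 1.14 to 4.52 in 5XFAD and 1.25 to 4.85 in compound mice. The markers include Kl and Slc4a5, which the paper reports as downregulated in aged Hdac1 cKO mice. Choroid plexus tissue in the dissection and lower RNA of these genes therefore cannot be told apart. Between control and Hdac1 cKO mice the marker level largely went with genotype, so a fit with it as a covariate cannot fully separate them. With this level as a covariate, or with only the 12 libraries at or below a level of 3, still no member passed the adjusted p in any hippocampal comparison. For Hdac1 cKO against control, Mbd3 (0.60) and Sap30 (0.77) then passed the fold rule with the covariate. In the libraries low in these markers Mier1 was at -0.64 and Sap30 at 0.79. There control replicate 1 alone stands for the controls and is assumed to vary like the other groups. No share of all genes past the fold rule is given for these fits, so the members cannot be set against it. Mbd3, Sap30 and Mier1 were named after their values were seen. The drop of Hdac1 in that comparison was -0.97 and -0.99 in these fits (adjusted p = 0.41 and 0.237, limma). Averaged over both backgrounds Hdac1 stayed past the adjusted p in both (-1.38, adjusted p = 0.000183, and -1.29, adjusted p = 0.0129, limma), and the intervals of 32 and 29 of the 35 members lay within 0.585.

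In GFAP+ nuclei Hdac1 was at 14.5, 9.91 and 22.3 FPKM in the control libraries and at 9.71, 11.6, 5.8 and 8.73 FPKM in the Hdac1 cKO libraries, which overlapped. The difference was -0.70 (95% interval -1.32 to -0.08; adjusted p = 0.984, limma), and -0.42 without control replicate 4, the highest control. Hdac1 RNA remained in this fraction at 8.95 ± 2.4 FPKM (n = 4), beside 15.6 ± 6.2 FPKM (n = 3). The share of nuclei without deletion was not tested. Fewer cells of a type and less RNA per cell cannot be told apart in such bulk samples, hippocampal ones included.

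Of the 35 members, 22 were higher and 13 lower in the Hdac1 cKO nuclei, with a median difference of 0.05 (all genes -0.006). An unadjusted p under 0.05 was reached by 1 member, Chd3, against 4.7% of 15070 genes (0.0133% by adjusted p, 2.58% by the fold rule). Chd3 was at 8.55, 10.6 and 11.8 FPKM in control and at 14.8, 15.4, 13.7 and 14 FPKM in Hdac1 cKO nuclei, without overlap. Its difference was 0.46 (95% interval 0.10 to 0.82; adjusted p = 0.984, limma; two-sided exact permutation p = 0.0286, the smallest these group sizes can give). Groups that do not overlap were seen for 4 of 35 members (Chd3, Chd5, Ing1 and Hmg20b, all higher), against 5.72% of all genes. The ATPase gene Chd5 was at 4.39, 2.39 and 3.15 FPKM in control and at 4.8, 4.56, 5.18 and 4.63 FPKM in Hdac1 cKO nuclei. With 3 control libraries, only 20 of 35 members had intervals within 0.585 (33.4% of all genes).

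The pathway around the members was read from further lists. Of 19 other subunits of HDAC1/2 complexes (such as Ctbp1, Zmym3 and Morf4l1), 6 subunits of the HDAC3 NCoR complex and 17 DNA-binding proteins that recruit these complexes (such as Rest), none passed the adjusted p or the fold rule in any of the 9 comparisons (limma), at the background shares given above. With Hdac1 loss averaged over both backgrounds, the median difference was -0.03 over 18 tested other subunits, -0.06 over the 6 HDAC3 genes and 0.008 over 16 tested recruiters. At an unadjusted p under 0.05 in that comparison stood Tbl1x at -0.33 (adjusted p = 0.359) and the recruiter Bcl11a at 0.20 (adjusted p = 0.299), both by limma.

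Spread within groups set the precision of these statements. The members' median coefficient of variation was 11.7% in control, 13.3% in Hdac1 cKO, 17.1% in 5XFAD and 15.9% in compound mice, against 18.7%, 17.4%, 20.4% and 21.2% over all genes tested. In GFAP+ nuclei it was 19.1% in control and 14.8% in Hdac1 cKO libraries, against 21.7% and 21.9%. The steadiest member in control hippocampus was Rbbp7 (6.4%) and the most variable Rcor2 (63.9%).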

How the data were processed

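The files deposited by the authors hold FPKM values. Per the labels and methods, hippocampal RNA was sequenced by 3′ Digital Gene Expression and GFAP+ nuclei by SMART-Seq v4, and FPKM came from Tophat2 and Cufflinks 2.0.0 with the UCSC annotation of mm9. Groups came from the labels; 27 of 34 listed samples were used, and not analysed here were GFAP+ control sample 2 and 6 ChIP-seq samples. The members and lists were chosen with earlier results of these data known.

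Values were taken as log2(FPKM + 1). For each comparison, limma 3.58.1 tested genes averaging 0.5 FPKM or more (R 4.3.3; trend, robust; tested on simulated data), and p-values were adjusted by Benjamini-Hochberg over all genes. The fold rule, 1.5-fold or more with an unadjusted p under 0.05, takes its thresholds from the study's methods. Here the fold is on the log2(FPKM + 1) scale and p is from limma, so the inputs differ from the study's. Fold changes on this scale understate those of low genes. Averages and the interaction were fitted over 20 mice. Named were Hdac1, Hdac2, members with an unadjusted p under 0.05 in any comparison and, by level or share, the highest and lowest member of each complex and family. Replicates are mice, 1 library each. FPKM gives no counts, so depth is an estimate. Alternatives were other pseudocounts, filters, scalings and fits, a replicate block, leaving out each library and, added after seeing the data, 2 that treat the level of choroid plexus markers. Python 3.11.15 with pandas 2.3.3 was used elsewhere.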

Additional observations from a re-analysis of the deposited data

Results flagged for a closer look

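Of 185 sets of values (1 gene in 1 group of 4 to 6 libraries), 6 (3.24%) held a library set apart from the rest by Dixon's criterion, which chance alone gives in about 1 in 20 sets. In GFAP+ Hdac1 cKO nuclei, Mta3 was 7.2 FPKM in replicate 4 against 3.78 to 3.82 in the other libraries, Arid4a was 48.5 in replicate 2 against 37.9 to 39.4, and Arid4b was 56.5 in replicate 1 against 67.7 to 69.1. In 5XFAD mice, Rbbp7 was 79 FPKM in replicate 3 against 59.7 to 65.2 and Arid4b was 33.4 in replicate 1 against 25 to 28.1. In compound mice, Sap30l was 21.2 FPKM in replicate 5 against 13.8 to 15.7.

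The effect of Hdac1 loss differed with the transgene at an unadjusted p under 0.05 for Chd3 (interaction -0.41, adjusted p = 0.525) and Hmg20b (interaction 0.43, adjusted p = 0.553) in the limma fit over 20 mice. Neither passed the adjustment.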

How the results depend on the processing

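No member passed an adjusted p of 0.05 under any alternative tried. The count by the fold rule stayed at 0 except as follows. For Hdac1 cKO against control mice it was 2 with choroid plexus markers as a covariate and 2 in libraries low in them. For 5XFAD against control mice it was 1 with the covariate (Sap30, 0.78). For compound against control mice it was 1 with a pseudocount of 0.1 (Sap130, 0.60), 2 with the covariate (Mta1, -0.59, and Rcor1, -0.65), 2 in libraries low in the markers, and 0 to 1 with 1 library left out (Sap130 without control replicate 2). In GFAP+ nuclei it was 0 to 1 with 1 library left out (Chd5 without control replicate 1, Sap30 without control replicate 4). No share of all genes past the fold rule is given for these alternatives, so the counts cannot be set against it. The cause was not tested.

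The members' median difference moved for Hdac1 cKO against control mice to -0.0349 with the covariate and over -0.0271 to 0.0300 with 1 library left out; for 5XFAD against control mice to -0.0719 in libraries low in the markers; for compound against Hdac1 cKO mice to -0.0995 after quantile normalisation, to -0.0400 in libraries low in the markers and over -0.114 to -0.0400 with 1 library left out; for compound against control mice to -0.147 with the covariate; and for the interaction to 0.0285 in libraries low in the markers. In GFAP+ nuclei it ran from -0.0145 to 0.112 with 1 library left out. The difference of Hdac2 between compound and control mice ran from -0.210 to 0.0238 with 1 library left out and was -0.499 in libraries low in the markers.

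Replicate numbers did not pair the samples: deviations of same-numbered libraries correlated at a median of 0.0242 in hippocampus and 0.00273 in nuclei. With the replicate block the median in GFAP+ nuclei was 0.0832. The members with an unadjusted p under 0.05 went from 4 to 2 for averaged Hdac1 loss and from 5 to 2 for compound against control. They went from 1 to 0 for compound against 5XFAD, 3 to 2 for compound against Hdac1 cKO and 0 to 1 for 5XFAD against control. For the interaction they went from 2 to 1, and in GFAP+ nuclei from 1 to 3. With 1 library left out the count was 0 to 2 for Hdac1 cKO against control, 2 to 4 for averaged loss and 0 to 3 for the interaction. With choroid plexus markers as a covariate these counts were 4, 2 and 0. Quantile normalisation gave 0 for Hdac1 cKO against control and 1 for the interaction. No share of all genes is given for these alternatives, so the counts cannot be set against it. The low member Rcor2 rested on an estimated 11.4 fragments in the median hippocampal library, and the part of depth in its spread was not tested.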
